A study of Sus scrofa with 6 samples.

Results

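The Wnt pathway genes described here are 53 named ligands, receptors, modulators and effectors, taken by symbol from the 17201 genes listed in the deposited tables; all 53 names were found. They were measured in prefrontal cortex of pigs aged 3 months. In 3 animals (VPA 391, 392 and 393) the labels give valproic acid at 75 mg/kg, which the series places in early gestation, and the 3 controls (401, 402 and 408) are labelled as untreated. Valproic acid is an anticonvulsant drug that inhibits histone deacetylases. The labels name separate animals but give neither litter nor sex, and the cortex was sampled as bulk tissue. The tests below treat the animals as independent. If animals of a group shared a litter, the p-values would be too small. A litter effect could then not be told apart from VPA.

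Wnt proteins are lipid-modified secreted signals that bind frizzled receptors together with the co-receptors LRP5 or LRP6. Without a ligand, a destruction complex of AXIN, APC and GSK3 proteins marks beta-catenin (CTNNB1) for degradation; with a ligand, Dishevelled proteins disable that complex and beta-catenin joins TCF/LEF factors on target genes. In brain the pathway is known for patterning, for the growth of synapses, for the timing of myelination and, through WNT7A and WNT7B, for the formation of the blood-brain barrier.

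Total counts per library ran from 16285517 to 17989032, so 1 CPM (the count scaled to the file total) stood for 16.3 to 18.0 reads. Cortical markers were present in every library. Glutamatergic neuron genes summed to between 3860 and 4214 CPM. GABAergic interneuron genes summed to 805 to 838 CPM in VPA and 752 to 781 CPM in controls, without overlap. Of these 10 genes 8 had positive fold changes (median log2 fold change 0.11), and 0 had an unadjusted p under 0.05. VPA 393 stood apart in 10 genes of striatal projection neurons, at 604 CPM in sum, against 195 and 216 CPM in VPA 391 and 392 and 159 to 185 CPM in controls. All VPA libraries thus lay above all controls in that striatal sum. Of the 10 striatal genes 9 had positive fold changes (median log2 fold change 1.04). An unadjusted p under 0.05 was reached by 7 of them, beside 16.2% of all genes tested, and none passed when adjusted.

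Of the 53 genes 52 had enough counts to be tested. RSPO1, a secreted R-spondin, was not, with 0 reads in control 401 and 3 reads in each of the others. CCDC88C was the only member that passed an adjusted p of 0.05 (edgeR's quasi-likelihood test, Benjamini-Hochberg over all genes tested), and it rose; none passed in the lower direction. Of all 14373 genes tested 0.362% passed, and 0.278% passed as higher in VPA. By the looser measure of an unadjusted p under 0.05, 10 of the 52 members (19.2%) passed, 7 higher and 3 lower, beside 16.2% of all genes.

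More members stood above the control level than below it. The log2 fold change was positive in 38 of the 52 members (73.1%) and in 50.5% of all genes tested. Its median was 0.10 over the members and 0.0018 over all genes. All VPA libraries lay above all controls in 11 members (21.2%), where 12.1% of all genes did so, and below them in 3 (5.77%), where 9.07% of all genes did so. These counts describe the list and were not tested.

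**Figure D1:**
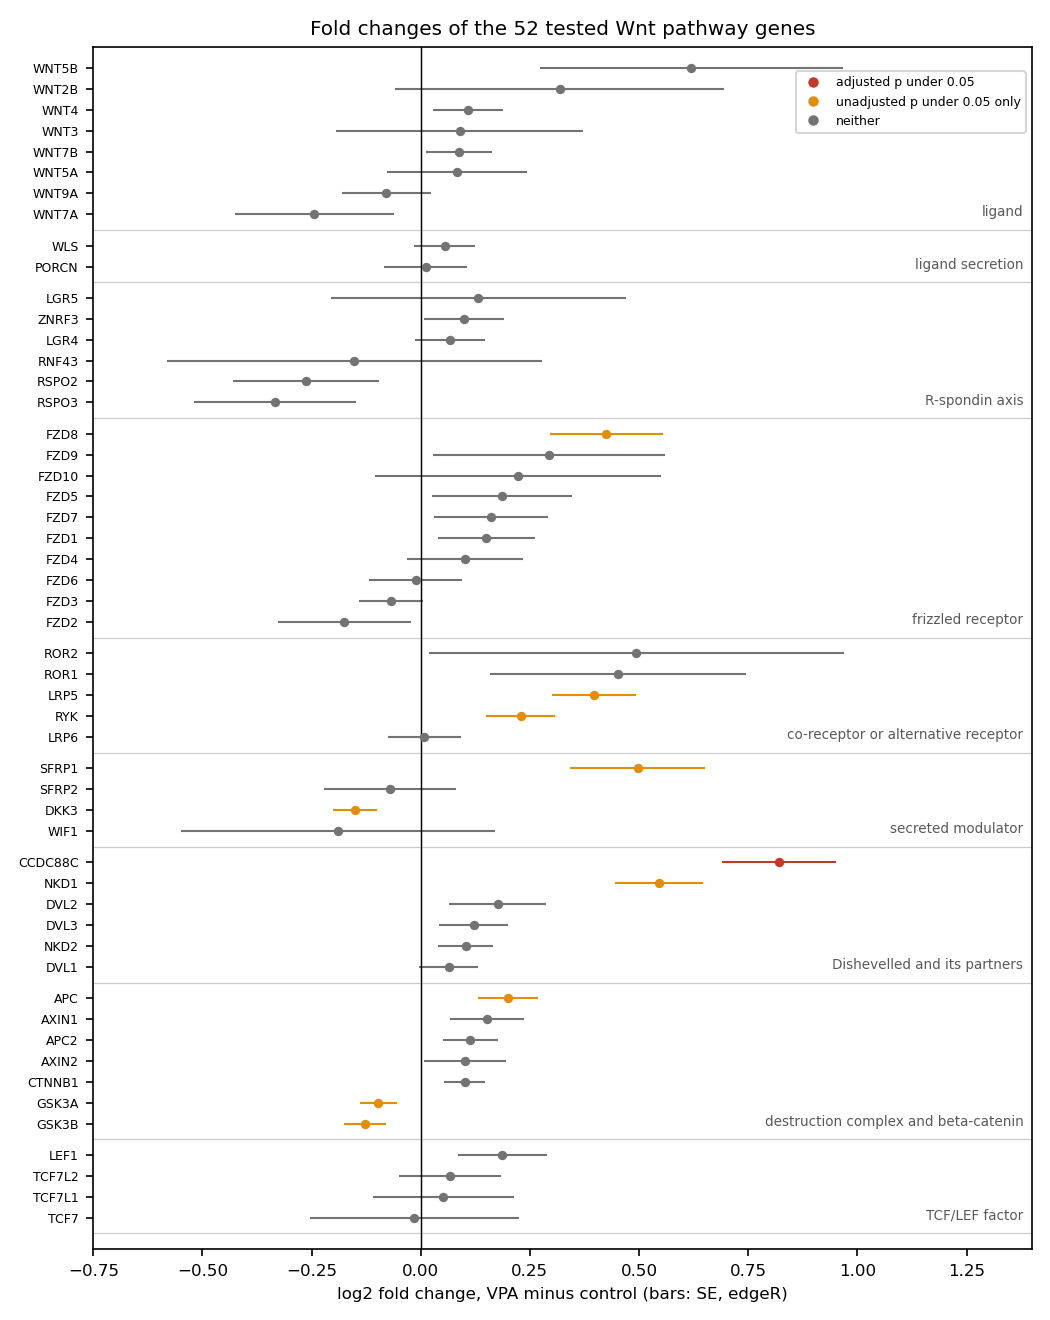
log2 fold change (VPA minus control) of each tested Wnt pathway gene with its standard error, grouped by role; red marks an adjusted p under 0.05 and orange an unadjusted p under 0.05 only. CCDC88C at 0.82 is the one red point, and 9 orange points lie between -0.15 and 0.55.

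Levels between genes are compared as deposited FPKM, which is scaled by gene length. In controls the order was led by NKD2, a Dishevelled-binding antagonist, at 195 ± 11.8 FPKM (SD, n = 3), and by DKK3, a divergent member of the Dickkopf family, at 191 ± 9.07 FPKM; these neighbours do not differ beyond their spread. The level of NKD2 depends on the gene model behind the deposited counts, and whether that model takes in reads of another transcript could not be checked. GSK3A followed at 96.0 ± 1.79 FPKM and CTNNB1 at 89.8 ± 3.68 FPKM. GSK3A and CTNNB1 were measured at similar levels, ahead of the scaffold APC at 50.3 ± 2.62 FPKM. The other GSK3 kinase, GSK3B, was lower per length at 18.8 ± 0.658 FPKM. In CPM GSK3B lay above GSK3A, with control means of 248 and 204. Receptors and ligands lay lower. LGR4 was the highest receptor at 9.11 ± 0.776 FPKM, followed by the secreted R-spondins RSPO3 and RSPO2 at 8.58 ± 0.842 and 8.33 ± 0.767 FPKM. FZD3 was the highest frizzled at 7.94 ± 0.604, and WNT7B the highest Wnt ligand at 7.40 ± 0.273 FPKM, next to the receptor RYK at 7.43 ± 0.448 FPKM. Neighbours among these 6 genes do not differ beyond their spread. The order as a whole depends on the gene length behind each FPKM, taken as deposited. In CPM, which is not scaled by length, control means were 112 for FZD3 and 67.2 for LGR4. They were 7.11 for RSPO3 and 6.08 for RSPO2. At the lower end RSPO1, WNT2B, ROR2, FZD9 and ROR1 had control means from 0.0494 to 0.177 FPKM.

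**Figure D2:**
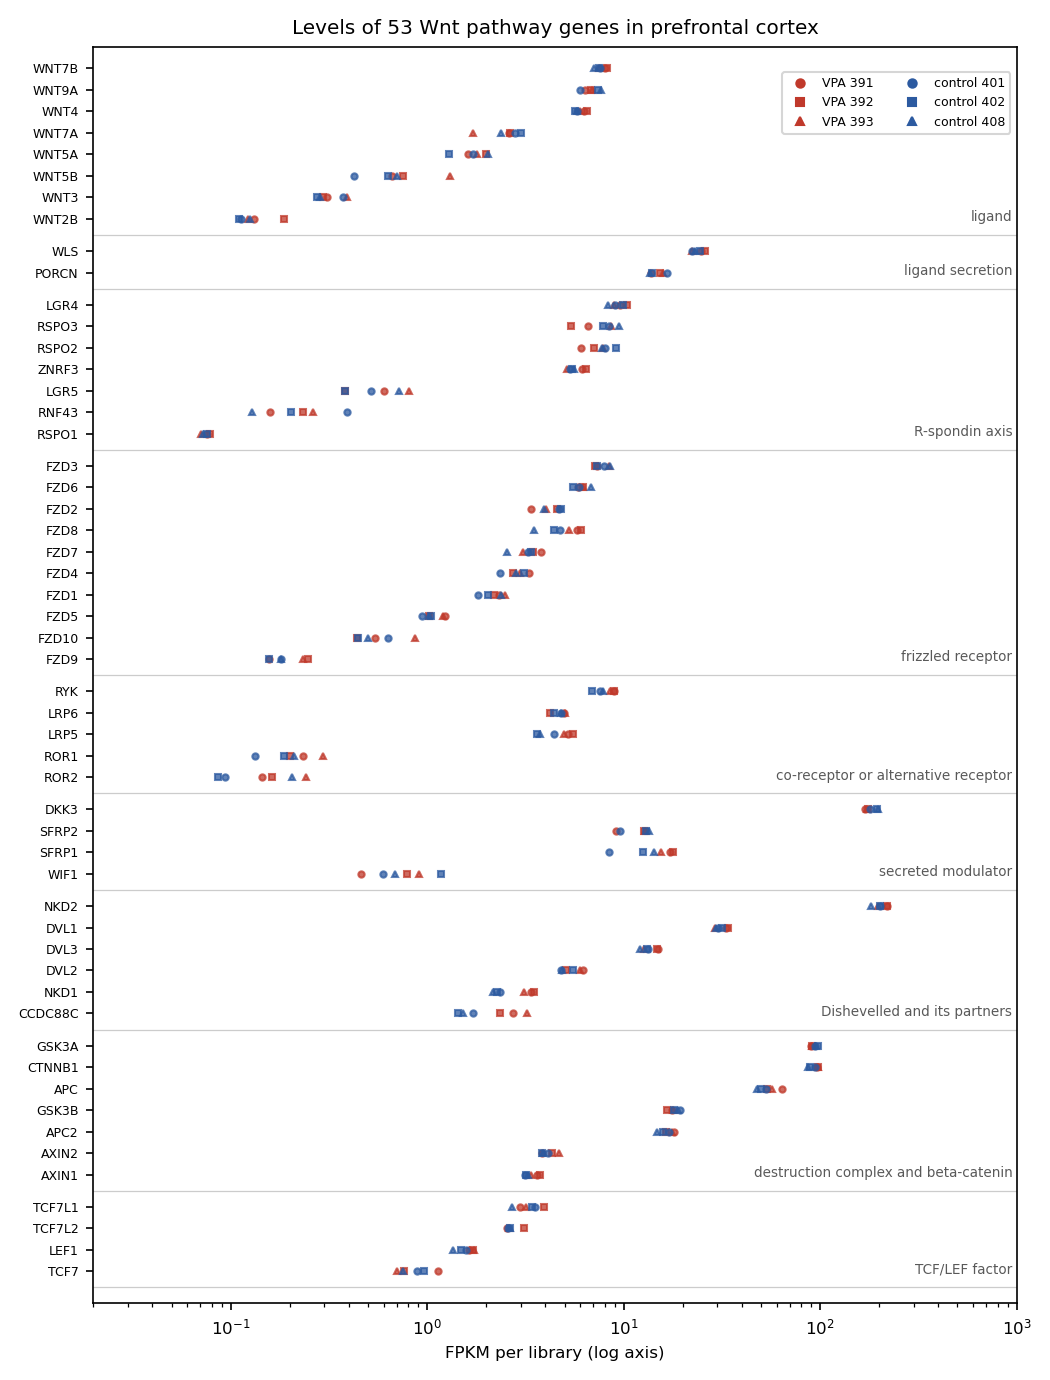
FPKM of each of the 53 Wnt pathway genes in every library (log axis), grouped by role; red symbols are VPA and blue symbols control libraries. Levels span from below 0.1 to above 200 FPKM, and for most genes the libraries lie close together; RSPO1 in control 401 was 0 and is not drawn.

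Among the ligands none passed the test. The 8 Wnt genes had log2 fold changes from -0.24 (WNT7A) to 0.62 (WNT5B). WNT7B, the ligand of the highest level, had 35.0, 36.0 and 32.8 CPM in VPA 391, 392 and 393 and 33.2, 32.7 and 30.9 CPM in controls 401, 402 and 408. The groups overlapped, and the log2 fold change was 0.09 ± 0.076 (SE, adjusted p = 0.61). WNT7B, WNT9A and WNT4 made up 28.9%, 27.4% and 22.5% of the summed ligand FPKM in controls, and 30.0%, 25.4% and 23.7% in VPA. WNT4 was the only ligand with groups that did not overlap, at 23.1 to 25.1 CPM in VPA and 21.9 to 22.4 CPM in controls (adjusted p = 0.55). WNT5B, an activator of beta-catenin-independent signalling, was highest in VPA 393 at 3.06 CPM, with 1.55 and 1.78 CPM in the other VPA animals and 1.001 to 1.65 CPM in controls.

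The genes that load and export Wnt proteins were close between groups. WLS, which carries the finished ligand to the cell surface, had 93.7, 97.6 and 84.1 CPM in VPA 391, 392 and 393 and 84.1, 92.2 and 86.5 CPM in the controls. Its groups overlapped (log2 fold change 0.05 ± 0.069, adjusted p = 0.76). PORCN, the acyltransferase that attaches the lipid, ranged from 27.9 to 34.2 CPM over the 6 libraries, with control 401 the highest.

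R-spondins amplify Wnt signals by binding LGR receptors and removing the ligases RNF43 and ZNRF3, which otherwise clear frizzleds from the membrane. None of the 6 tested genes of this group passed, 3 positive and 3 negative. The secreted R-spondins RSPO2 and RSPO3 had 4.42 to 5.73 and 4.48 to 7.12 CPM in VPA and 5.63 to 6.70 and 6.47 to 7.85 CPM in controls, with overlapping groups. LGR4 had 70.4, 76.6 and 66.1 CPM in VPA and 66.8, 73.1 and 61.7 CPM in controls (log2 fold change 0.07 ± 0.080, adjusted p = 0.74). The ligase ZNRF3, at 43.3 to 54.6 CPM, was far above RNF43 per length, at 5.46 ± 0.149 against 0.240 ± 0.134 FPKM in controls (SD, n = 3).

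Frizzleds are the receptors that bind Wnt proteins directly. None of the 10 passed, and FZD8 came nearest. It had 16.3, 16.9 and 14.8 CPM in VPA 391, 392 and 393 and 13.3, 12.4 and 9.78 CPM in controls 401, 402 and 408. Every VPA library lay above every control, and control 408 was the lowest (log2 fold change 0.43 ± 0.13, adjusted p = 0.14). FZD3, the most abundant frizzled per length, had 103, 101 and 119 CPM in VPA and 112, 104 and 121 CPM in controls. Its groups overlapped (log2 fold change -0.07 ± 0.074, adjusted p = 0.70). FZD8 held 16.7% ± 1.34 of the summed frizzled FPKM in VPA and 13.0% ± 1.97 in controls (SD, n = 3), while FZD3 held 22.3% ± 1.69 and 24.6% ± 1.89. The summed frizzled FPKM was 33.7 to 34.8 in VPA and 32.2 to 32.4 in controls.

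The co-receptors and alternative receptors all had positive fold changes, and none passed. LRP5, which pairs with frizzleds in the beta-catenin branch, had 27.8, 29.4 and 26.4 CPM in VPA 391, 392 and 393 and 23.6, 19.3 and 20.0 CPM in controls 401, 402 and 408. The groups did not overlap (log2 fold change 0.40 ± 0.096, adjusted p = 0.092). Its close relative LRP6 had 40.3 to 48.3 CPM in VPA and 42.4 to 46.0 CPM in controls, so that the groups overlapped (log2 fold change 0.0080 ± 0.084, adjusted p = 0.97). Whether the pair differed in response was not tested. RYK, a receptor with a Wnt-binding domain and an inactive kinase, had 33.6, 33.6 and 32.1 CPM in VPA and 28.4, 26.2 and 29.5 CPM in controls, again without overlap (log2 fold change 0.23 ± 0.078, adjusted p = 0.19). The receptor tyrosine kinase genes ROR1 and ROR2 were low, at 1.84 to 2.72 and 0.598 to 1.001 CPM in VPA.

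The secreted modulators lay in opposite directions. SFRP1, a decoy with a frizzled-like Wnt-binding domain, had 72.8, 75.4 and 65.8 CPM in VPA 391, 392 and 393 and 36.0, 53.3 and 61.0 CPM in controls 401, 402 and 408. All VPA libraries were higher, while the controls were spread widely and control 401 was far below the others. The log2 fold change was 0.50 ± 0.15 (adjusted p = 0.15) and 0.30 without control 401. DKK3 had 464, 480 and 475 CPM in VPA and 493, 530 and 540 CPM in controls. All VPA libraries were lower (log2 fold change -0.15 ± 0.051, adjusted p = 0.18). SFRP2, of the same family as SFRP1, had 18.4 to 25.7 CPM in VPA and 19.2 to 26.9 CPM in controls.

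The largest difference was in a Dishevelled partner. CCDC88C encodes Daple, a protein that binds Dishevelled and links frizzled receptors to G proteins in beta-catenin-independent signalling. It had 20.4, 17.4 and 24.0 CPM in VPA 391, 392 and 393 and 12.8, 10.7 and 11.3 CPM in controls 401, 402 and 408. The lowest VPA library stood above the highest control, and VPA 393 was the highest. CCDC88C rose 1.77-fold, from 11.6 ± 1.09 to 20.6 ± 3.30 CPM (SD, n = 3 each; log2 fold change 0.82 ± 0.13 SE, adjusted p = 0.047, rank 21 of all genes tested).

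The call on CCDC88C lies close to the threshold. Its adjusted p was 0.12 without VPA 391, VPA 392 or control 402, 0.066 without VPA 393, 0.15 without control 408 and 0.042 without control 401. The log2 fold change ran from 0.70 to 0.93 over these 6 fits.

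NKD1 had the next lowest p of the 53 genes. Its product binds Dishevelled and restrains the pathway, and its transcription is itself induced by Wnt signals in many tissues. It had 17.5, 18.1 and 16.2 CPM in VPA 391, 392 and 393 and 12.2, 11.7 and 11.3 CPM in controls 401, 402 and 408. Libraries within each group were close and the groups did not overlap. The log2 fold change was 0.55 ± 0.10 with an adjusted p of 0.054, just short of the threshold. In DESeq2, which called 3.14% of the genes it tested, 3 members passed, all higher: CCDC88C (adjusted p = 9.54e-05), NKD1 (0.014) and LRP5 (0.045).

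**Figure D3:**
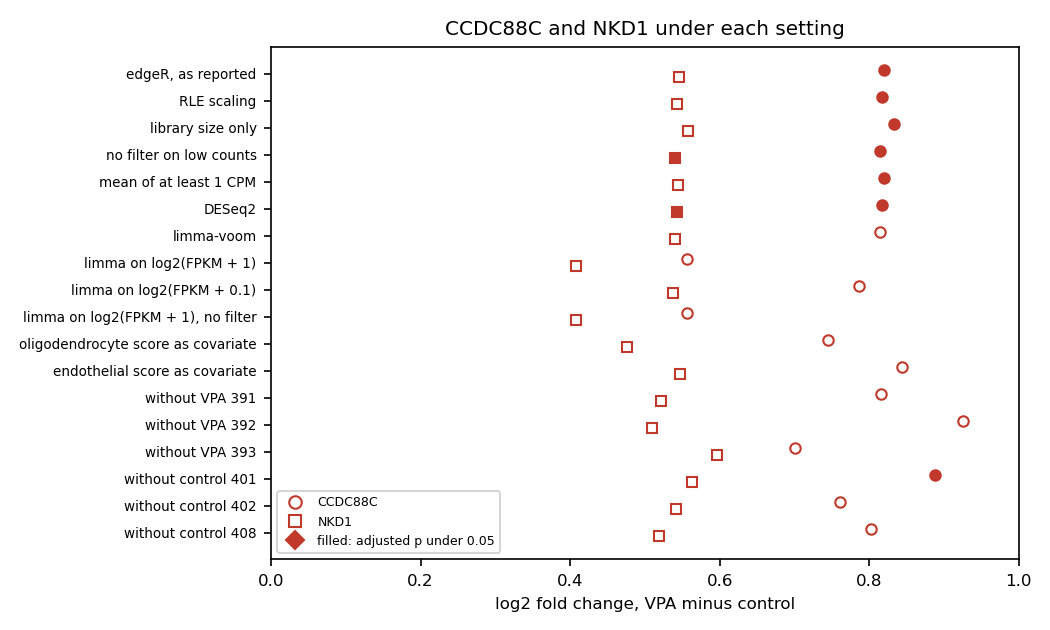
log2 fold change (VPA minus control) of CCDC88C (circles) and NKD1 (squares) in the edgeR fit and under 17 other settings; filled symbols have an adjusted p under 0.05. CCDC88C stays between 0.56 and 0.93 and NKD1 between 0.41 and 0.60, and the symbols are filled in 6 and 2 of the other settings.

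Its relative NKD2, the highest of the 53 genes as deposited, had 491, 491 and 440 CPM in VPA and 453, 453 and 407 CPM in controls, so its groups overlapped (log2 fold change 0.10 ± 0.063, adjusted p = 0.46). The Dishevelled genes themselves, DVL1, DVL2 and DVL3, had log2 fold changes of 0.06, 0.18 and 0.12, and none passed. DVL1 made up the larger part of their transcripts, at 30.4 ± 1.18 FPKM in controls against 12.9 ± 0.673 for DVL3 and 5.06 ± 0.416 for DVL2.

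In the destruction complex no gene passed, and differences were small. CTNNB1 had 514, 522 and 522 CPM in VPA 391, 392 and 393 and 502, 474 and 464 CPM in controls 401, 402 and 408. The groups did not overlap, but control 401 came near the VPA animals (log2 fold change 0.10 ± 0.047, adjusted p = 0.32). APC, the large scaffold that holds beta-catenin in the complex, had 573, 482 and 513 CPM in VPA and 476, 447 and 430 CPM in controls. VPA 391 was the highest, and the log2 fold change was 0.20 ± 0.068 (adjusted p = 0.19), or 0.12 without VPA 391.

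The GSK3 kinases were lower in all VPA libraries than in any control. GSK3A had 191, 193 and 194 CPM in VPA 391, 392 and 393 and 201, 208 and 203 CPM in controls 401, 402 and 408 (log2 fold change -0.10 ± 0.043, adjusted p = 0.30). GSK3B had 232, 220 and 236 CPM in VPA and 257, 239 and 249 CPM in controls (log2 fold change -0.13 ± 0.048, adjusted p = 0.23). Neither passed, and the fold was 0.935 for GSK3A and 0.915 for GSK3B.

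AXIN2, LEF1 and LGR5, standard transcriptional read-outs of beta-catenin signalling, did not pass the test. NKD1, described above as induced by Wnt signals, fell just short in edgeR (log2 fold change 0.55, adjusted p = 0.054) and passed in DESeq2. AXIN2, a destruction complex scaffold induced as negative feedback, had 20.1, 22.6 and 24.7 CPM in VPA 391, 392 and 393 and 21.7, 20.1 and 20.5 CPM in controls 401, 402 and 408. Its groups overlapped (log2 fold change 0.10 ± 0.094, adjusted p = 0.64; 0.03 without VPA 393). LEF1, a TCF/LEF factor that is also a target, had 14.6, 15.3 and 15.5 CPM in VPA and 14.2, 13.3 and 12.1 CPM in controls. The groups were separate by a narrow margin (log2 fold change 0.19 ± 0.10, adjusted p = 0.40). LGR5, another frequent target, had 1.47 to 3.11 CPM in VPA and 1.48 to 2.79 CPM in controls.

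Of the other factors that carry beta-catenin to DNA, TCF7L2 had 11.4, 13.9 and 11.7 CPM in VPA and 11.5, 11.8 and 11.7 CPM in controls. Only VPA 392 stood out, and without it the log2 fold change turned from 0.07 ± 0.12 to -0.03 (adjusted p = 0.83 with all libraries). TCF7L1, the most abundant of the 4 per length at 3.22 ± 0.444 FPKM in controls, had 6.94, 9.15 and 7.45 CPM in VPA and 8.23, 7.95 and 6.31 CPM in controls. The groups overlapped, and the log2 fold change of 0.05 ± 0.16 (adjusted p = 0.91) turned to -0.07 without VPA 392 and to -0.06 without control 408. TCF7 had 2.95 to 4.78 CPM over all libraries.

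**Figure D4:**
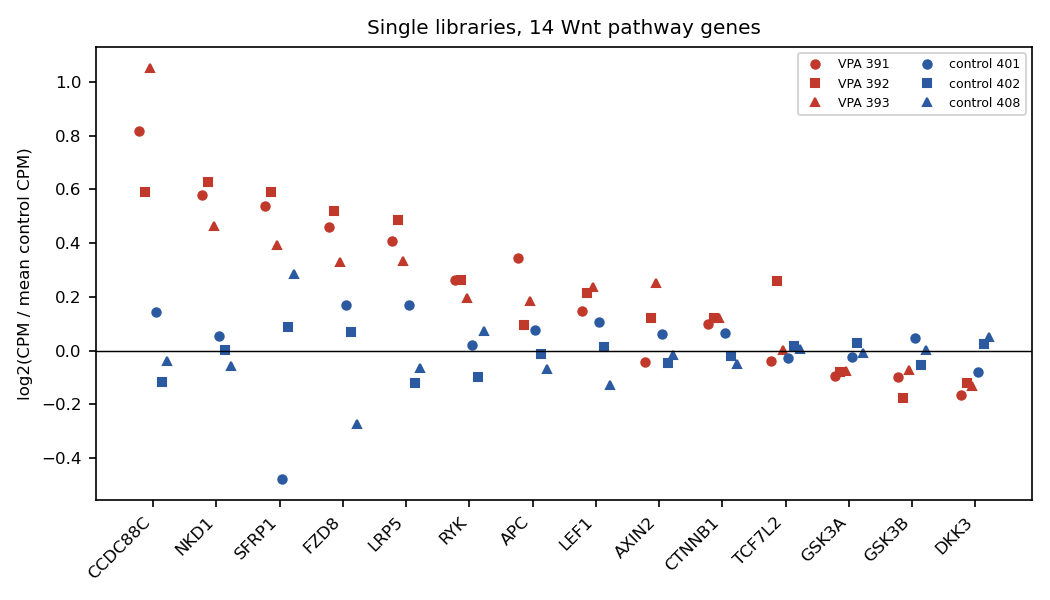
log2 of CPM over the control mean in each library for the 10 members with an unadjusted p under 0.05 and for CTNNB1, AXIN2, LEF1 and TCF7L2; red symbols are VPA and blue symbols control libraries. Red and blue do not mix for CCDC88C, NKD1, LRP5 and FZD8; they do for AXIN2 and TCF7L2; control 401 is far below the other libraries for SFRP1.

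A further list of 104 pathway genes held other ligands, inhibitors, kinases, nuclear cofactors, planar polarity genes and targets. Of these 98 were measured and 89 tested; 0 passed in edgeR, with 6 higher and 4 lower at an unadjusted p under 0.05, and the median log2 fold change was 0.03. Those 10 are 11.2% of the list, beside 16.2% of all genes. DESeq2 called 3 of the 89 (DAAM2, LGR6 and TNFRSF19), where it called 3.14% of all genes it tested, and limma called none. The lowest p belonged to LGR6, an R-spondin receptor of the same family as LGR4, with 18.5, 16.1 and 13.8 CPM in VPA 391, 392 and 393 and 11.3, 8.78 and 11.2 CPM in controls (log2 fold change 0.61 ± 0.14, adjusted p = 0.083). INTU, a planar polarity effector, had 16.7, 16.1 and 18.3 CPM in VPA and 13.2, 13.0 and 12.3 CPM in controls (0.40 ± 0.099, adjusted p = 0.097). In the lower direction were AMER3, which binds APC (55.5 to 56.0 CPM in VPA, 61.3 to 66.9 in controls, adjusted p = 0.14), and JUN, a transcription factor gene used as a target (48.1 to 51.8 and 53.4 to 65.9 CPM, adjusted p = 0.20). In all 4 genes the groups did not overlap, as in 8.99% of the list in the higher and 6.74% in the lower direction (12.1% and 9.07% of all genes). Of the 13 target genes 11 were tested, 5 with positive and 6 with negative fold changes. Besides JUN, the target TNFRSF19, a receptor of the tumour necrosis factor family named after its values were seen, had separate groups in the other direction, at 39.2 to 42.6 CPM in VPA and 25.1 to 34.7 CPM in controls (log2 fold change 0.41 ± 0.11, adjusted p = 0.11).

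Cell type markers were measured beside these genes. Oligodendrocyte markers summed to between 17284 and 19462 CPM in VPA and between 13267 and 17806 CPM in controls. Of these 15 markers 14 had positive fold changes (median 0.33), 10 at an unadjusted p under 0.05, and none passed. Precursor markers summed to 1355 to 1551 and 1098 to 1326 CPM, without overlap (8 of 10 positive, median 0.20). Astrocyte markers summed to 9950 to 11406 and 9426 to 10256 CPM (7 of 9 positive, median 0.18). At an unadjusted p under 0.05, 5 precursor and 5 astrocyte markers were higher. The shares were 66.7% of oligodendrocyte, 50% of precursor and 55.6% of astrocyte markers, beside 16.2% of all genes. Endothelial markers overlapped, at 405 to 474 and 403 to 444 CPM (7 of 11 positive, median 0.04). Mural cell and fibroblast markers also overlapped, at 484 to 613 and 426 to 531 CPM (7 of 10 positive, median 0.14). At an unadjusted p under 0.05, 0 endothelial and 2 mural cell and fibroblast markers (20%) passed, the latter higher in VPA. Glutamatergic neuron markers lay the other way: 7 of 10 had negative fold changes (median -0.14), 5 of them at an unadjusted p under 0.05, and none passed; their sums overlapped, at 3860 to 4205 CPM in VPA and 4107 to 4214 CPM in controls. No marker of these 6 lists was at 0 in any library. Microglia sums overlapped, at 429 to 441 CPM in VPA and 348 to 442 CPM in controls (7 of 9 positive, median 0.06). Of the microglia markers 2 (22.2%) were higher at an unadjusted p under 0.05. Choroid plexus and ependymal sums overlapped too, at 56.5 to 73.6 and 48.6 to 62.5 CPM. Of the 6 choroid plexus and ependymal markers tested, 3 had positive and 3 negative log2 fold changes, from -1.94 to 2.55. At an unadjusted p under 0.05, 2 were higher and 1 lower. Only 1 (16.7%) passed, higher in VPA (adjusted p = 0.041 in edgeR), beside 0.362% of all genes tested. In bulk tissue, a change in how many cells of a type were present cannot be told apart from a change of RNA per cell.

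With the oligodendrocyte marker score as a covariate the log2 fold change was 0.75 for CCDC88C and 0.48 for NKD1, 0.32 for FZD8 and 0.84 for SFRP1, but 0.17 for LRP5, 0.13 for RYK and -0.07 for DKK3. It was 0.13 for APC, 0.05 for CTNNB1, -0.06 for GSK3A and -0.18 for GSK3B, and 0.27 for LGR6. JUN, at -0.25 without the score, had -0.0011 with it. That fit called 1 gene of 14373 in all and no member (adjusted p = 0.52 for CCDC88C). With the endothelial score CCDC88C had 0.84 and LRP5 0.41. The oligodendrocyte markers were themselves mostly higher in VPA, so the fit with their score cannot fully separate it from the group. No fit used the precursor or astrocyte markers. The part of the cell types in these differences was not tested. VPA 393, the library with the highest striatal markers, was the highest for CCDC88C and not for NKD1, LRP5, FZD8 or SFRP1. Without it the log2 fold change of CCDC88C was 0.70, and these 4 had 0.60, 0.44, 0.48 and 0.56. The striatal sums of VPA 391 and 392 also lay above those of all controls, so that fit keeps a striatal difference. The part of striatal tissue was not tested.

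**Figure D5:**
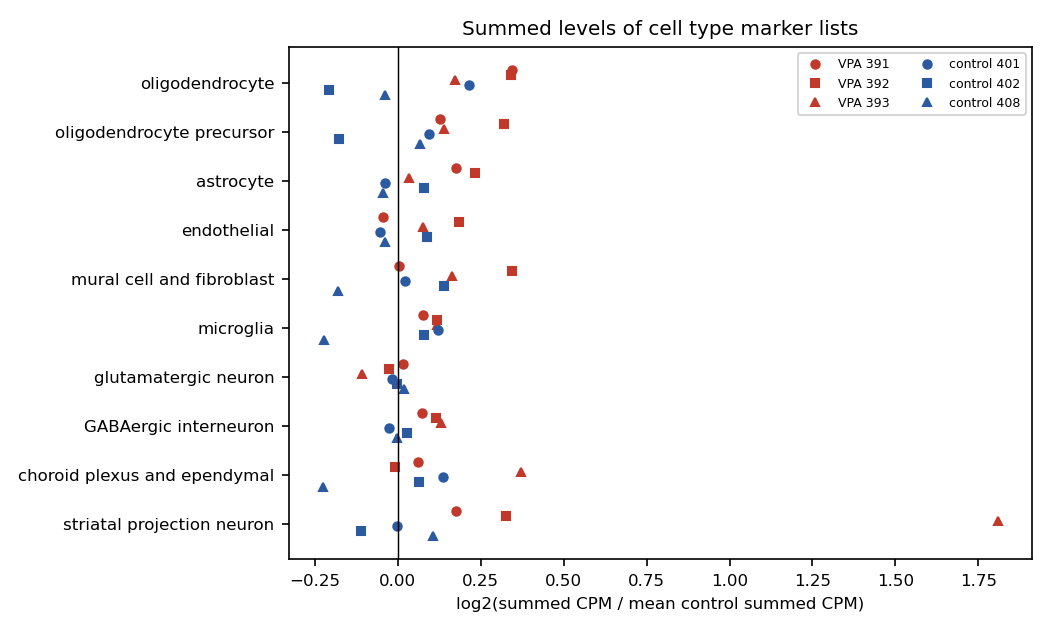
log2 of the summed CPM of each marker list over its control mean, per library; red symbols are VPA and blue symbols control libraries. Oligodendrocyte sums overlap only through control 401 and VPA 393, and the striatal sum of VPA 393 lies far to the right of all others.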

How the data were processed

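The authors deposited 1 table of raw counts and 1 of FPKM per library, as the file headers and names show; all 97071 nonzero FPKM values equalled count over file total and a fixed gene length (relative tolerance 0.001). RNA was extracted with TRIzol and libraries made with a VAHTS Universal V6 kit, per the labels' protocols. Aligner, counting tool, strand and genome build are not named in the labels or headers. No coordinates are therefore printed, and reads of overlapping genes cannot be separated. Among the 53 members, 18 overlap another gene in the RefSeq table of Sscrofa11.1. CTNNB1, LRP5, FZD8 and the read-outs AXIN2, LEF1 and LGR5 are among them, and CCDC88C and NKD1 are not. That table also served for names.

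Counts were tested in R 4.3.3 with edgeR 4.0.16 (filterByExpr, TMM, glmQLFit and glmQLFTest without covariates, Benjamini-Hochberg over 14373 genes, threshold 0.05); standard errors come from the F statistic. CPM uses file totals. With 3 against 3 animals there are 4 residual degrees of freedom. The edgeR fit with and without a covariate, DESeq2, limma-voom and limma on log2 CPM were run on simulated counts. The other scalings, filters and left-out libraries listed next, and the pseudocount of 0.1, were not. Alternatives were other scaling and filters, DESeq2 1.42.0, limma 3.58.1 (voom, or its trend method applied to log2(FPKM + 1) and log2(FPKM + 0.1)), marker scores (mean log2 CPM of a list) as covariates, and each library left out. All pairs of libraries differed by more than sampling noise (chi-square per degree of freedom 5.74 to 12.8). Of 207 entries in the lists of further pathway genes and markers, 199 were measured.

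Members and lists were chosen with earlier results of these data known. Named with full values are members that passed the test, those with an unadjusted p under 0.05 and separate groups, CTNNB1, AXIN2, LEF1 and TCF7L2, the most abundant member of each role, and the 2 further pathway genes of lowest p in each direction; other members are given by ranges and counts, and those with values beyond that were picked after their values were seen.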

Additional observations from a re-analysis of the deposited data

How the results depend on the processing

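The count of genes called in all (52) rested on the tool and on single libraries. It was 45 with RLE scaling, 58 with library size only and 46 with a mean of at least 1 CPM, but 141 with no filter on low counts, 435 in DESeq2, 30 in limma-voom, 2 in limma on log2(FPKM + 1) or log2(FPKM + 0.1) and 1 without the FPKM filter. It was 1 with the oligodendrocyte score and 8 with the endothelial score as covariate, and 0 to 66 with a library left out (0 without VPA 391 and without VPA 392, 1 without VPA 393, 66 without control 401, 5 without control 402 and 2 without control 408). Members called higher numbered 2 with no filter on low counts (CCDC88C and NKD1), 3 in DESeq2 and 0 in limma-voom, in limma on FPKM and with either score, and 0 to 1 with a library left out (1 only without control 401). No setting called a member lower. The median log2 fold change of the members was positive throughout, at 0.072 in limma on log2(FPKM + 1) with no filter and 0.078 to 0.12 with a library left out. TCF7L1 ran from -0.072 to 0.12 and TCF7L2 from -0.030 to 0.11 with a library left out; the other 22 genes given with full values kept their sign in all 17 settings, JUN at -0.0011 with the oligodendrocyte score. Over all 52 tested members, 37 kept their sign in every setting that gave a value and 15 did not, the largest of these at 0.22. The causes were not tested. No paired analysis was possible because the animal numbers of VPA and control libraries are not shared. At 16.3 to 18.0 reads per CPM, WNT2B, ROR2 and RSPO1, with under 1 CPM on average, rest on few reads.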
